A study of Caenorhabditis elegans with 2 samples.

Results

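The genes of the RNA components of RNase P (*rpr-1*) and RNase MRP (*mrpr-1*), the Y RNA gene *yrn-1* and the noncoding RNA gene *rncs-1* were examined for binding of SNPC-4 in young adult *Caenorhabditis elegans*. These 4 genes were taken by name from 46926 annotated genes, as genes present in a single copy, most of them known as products of RNA polymerase III. SNPC-4 was mapped by chromatin immunoprecipitation and sequencing (ChIP-seq) in whole worms of mixed sex of strain OP179, genotype *unc-119(ed3)* III with the integrated transgene *wgIs179*, which gives SNPC-4 a C-terminal GFP-FLAG tag. The only group was young adults of this single transgenic line with 2 biological replicates. There was no untreated or untagged group, and the control experiment named in the labels was not analysed here, so no test between groups was made.

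SNPC-4 belongs to SNAPc, a complex known to bind the proximal sequence element upstream of small nuclear RNA (snRNA) genes. In vertebrates the RNase P, RNase MRP and Y RNA genes have promoters of the same upstream kind, in which a proximal sequence element and a TATA box direct RNA polymerase III. RNase P trims the 5′ ends of transfer RNA (tRNA) precursors, RNase MRP cuts a precursor of ribosomal RNA, and Y RNA is bound by the Ro protein. The RNA of *rncs-1* is known to be induced by starvation and to act on Dicer, and it belongs to none of the other 3 families.

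The annotation of the ce11 genome places *rpr-1* on chromosome I from 13463955 to 13464207, on the plus strand inside an intron of *ints-8*, a gene of the opposite strand. *mrpr-1* lies on chromosome II from 7200233 to 7200418 on the plus strand, overlaps no other gene and starts 316 bp away from the 5′ end of *pcrg-1*. *yrn-1* lies on chromosome IV from 7499508 to 7499612 on the plus strand. It is inside an intron of *F55G1.15*, a protein-coding gene of the opposite strand, and overlaps the exon of the antisense noncoding RNA gene *F55G1.20*. *rncs-1* lies on chromosome X from 1011501 to 1012347 on the plus strand, is annotated with 2 exons and overlaps no other gene.

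The sequence around the genes was mostly unique. Among words of 32 bases taken from 200 bp on either side of each 5′ end, 100% had a single match in the genome for *rpr-1*, *mrpr-1* and *yrn-1*, and 91.4% did so for *rncs-1*.

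The 100 bases before each of 3 genes are shown because they separate *mrpr-1* and *yrn-1* from *rncs-1*. They are given on ce11, plus strand, 5′ to 3′, and end just before the annotated 5′ end: chrII:7200133-7200232 for *mrpr-1*, chrIV:7499408-7499507 for *yrn-1* and chrX:1011401-1011500 for *rncs-1*. Capitals mark the letters AAC and TGTC with 8 bases between them, and the first TATATA that follows 15 to 25 bases later.
mrpr-1 upstream: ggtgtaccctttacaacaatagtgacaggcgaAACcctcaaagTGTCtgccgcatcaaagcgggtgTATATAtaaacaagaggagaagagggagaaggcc
yrn-1 upstream: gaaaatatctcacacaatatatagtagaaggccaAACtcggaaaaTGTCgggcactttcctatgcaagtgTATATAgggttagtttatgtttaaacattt
rncs-1 upstream: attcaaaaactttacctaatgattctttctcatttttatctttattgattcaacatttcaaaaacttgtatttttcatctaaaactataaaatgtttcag

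Upstream of *rpr-1*, *mrpr-1* and *yrn-1* the same arrangement of letters stood at nearly the same place. The 15-base element of AAC and TGTC began 66 bp upstream of *rpr-1*, 68 bp upstream of *mrpr-1* and 66 bp upstream of *yrn-1*. The TATATA began 30, 34 and 30 bp upstream, with 21, 19 and 21 bases between the element and it. *rncs-1* had neither on its own strand in the 100 bases. In a window of 22 bases that begins 3 bases before the element, 7 bases are alike by the choice of the letters. Of the other 15, *rpr-1* and *mrpr-1* had 9 in common, *mrpr-1* and *yrn-1* had 8, and *rpr-1* and *yrn-1* had 6, with no value for unrelated windows computed. The windows differed in overall composition, as G and C made up 69.0% of the upstream window of *rpr-1*, 48.0% of that of *mrpr-1*, 34.0% of that of *yrn-1* and 21.0% of that of *rncs-1*. The letters were chosen after the upstream sequences of these genes and of snRNA genes had been read, so their presence in the 3 genes is a description.

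Among all 46890 nuclear genes the element was found on the gene's own strand in the upstream 100 bases of 309 (0.659%), and on the other strand of 201 (0.429%). TATATA, which can overlap a longer TATA stretch, was found upstream of 5.07%. The 2 in the stated order and spacing were found upstream of 18 genes (0.0384%), and on the other strand of 3. Of those 18 genes 11 are snRNA genes and 3 are *rpr-1*, *mrpr-1* and *yrn-1*. Of the 31 spliced leader RNA genes, which SNAPc also serves, 10 had the element and 0 had the TATATA (a count of 0 says only that these letters are not in this window).

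The RNAs themselves are shown because they are the products of these genes. The gene sequences with 10 bases beyond the annotated 3′ end are chrII:7200233-7200428 for *mrpr-1* and chrIV:7499508-7499622 for *yrn-1*. Capitals mark a run of T at that end, and such a run is the usual stop signal of RNA polymerase III. Both sequences also hold a run of 4 T farther inside the gene, left in lower case. Runs inside the genes were not counted, so the letters alone do not mark the end.
mrpr-1 gene: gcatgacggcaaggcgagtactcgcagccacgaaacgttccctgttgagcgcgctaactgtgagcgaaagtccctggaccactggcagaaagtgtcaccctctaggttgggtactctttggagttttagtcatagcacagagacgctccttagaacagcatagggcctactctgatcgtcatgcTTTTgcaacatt
yrn-1 gene: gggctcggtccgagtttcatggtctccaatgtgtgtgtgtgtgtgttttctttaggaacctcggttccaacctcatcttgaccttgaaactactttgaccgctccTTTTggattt

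A run of at least 4 T was found from 10 bases before to 20 bases beyond the annotated 3′ end of 3 genes, with 5 T at *rpr-1*, 4 at *mrpr-1* and 4 at *yrn-1*. At *rncs-1* there was none in that window. Such a run is common there, at 46.8% of all nuclear genes and 30.5% of those annotated as noncoding RNA, and at 98.7% of nuclear tRNA genes, which RNA polymerase III makes.

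The ChIP data are lists of peaks, each with a summit and a signal, the enrichment value that the authors' peak caller gave it. On ce11 the thresholded list, cut by IDR (irreproducible discovery rate), has 2345 peaks with signals from 41.5 to 3238. The pooled list given to IDR has 30000 entries with a median signal of 11.3, and the lists of replicate 1 and replicate 2 have 27573 and 30000 entries. By their labels these lists hold peaks and background, so a weak entry is not a called peak. The scale of the signal can differ between lists, so ratios between genes and ranks are taken within a list, and a ratio between the replicates is read only beside that of other peaks. Read counts were not used here, so depth is unknown.

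In the thresholded ce11 list 2 of the 4 genes, *rpr-1* and *mrpr-1*, had a summit within 200 bp of the 5′ end, where 4.87% of all annotated genes and 5.64% of the genes annotated as noncoding RNA had one. In the 2345 strongest entries of each replicate 3 of the 4 genes had such a summit, *yrn-1* being the third, where 5.48% of all genes did so in replicate 1 and 4.36% in replicate 2. In the pooled list *rpr-1*, *mrpr-1* and *rncs-1* had a summit within 200 bp and *yrn-1* had none. That list is so dense that 30.3% of all genes had an entry there. All 4 genes had a summit within 200 bp in the full lists of replicate 1 and replicate 2, where 29.4% and 27.2% of all genes had one. The order of signal in both replicate lists was *rpr-1*, *mrpr-1*, *yrn-1*, *rncs-1*, with each gene's pair of replicate values clear of its neighbours' pairs.

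**Figure D1:**
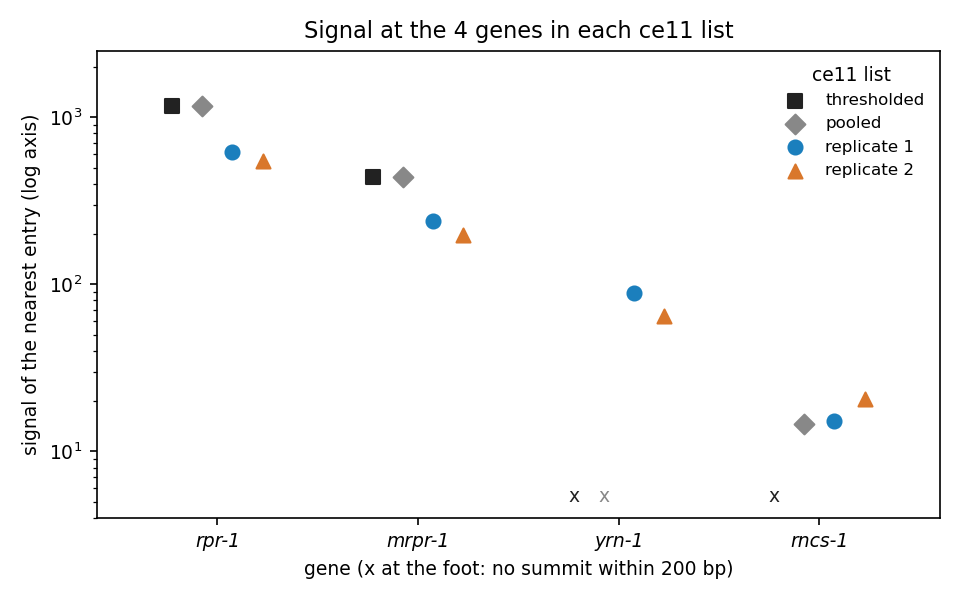
Signal (log axis) of the entry with the nearest summit at each gene, in the thresholded, pooled and 2 replicate ce11 lists, 1 point per list, with an x where no summit lay within 200 bp. In both replicate lists *rpr-1* is highest (617 and 544) and *rncs-1* lowest (15.2 and 20.5), and *yrn-1* has points in the replicate lists only.

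*rpr-1*, the RNase P RNA gene, had the strongest entry of the 4. Its signal was 1167 in the thresholded list, 617 in replicate 1 and 544 in replicate 2, with a replicate mean of 581 ± 51.3 (SD, n = 2). Those values gave it rank 25 in the thresholded list, rank 27 in replicate 1 and rank 26 in replicate 2. The thresholded peak ran from 13463616 to 13464300, a width of 685 bp against a median of 380 bp in the list, and so covered the whole gene. The intervals of replicate 1 and replicate 2 were 476 and 523 bp wide. They ended at 13464113 and 13464201, short of the gene's end at 13464207. Upstream of the 5′ end, the summit lay at 21 bp in the thresholded list and in replicate 1, and at 38 bp in replicate 2. The nearby entries were weak, as the strongest other entry within 3000 bp had a signal of 14.4 in the pooled list, and the entry at *rpr-1* was 81.0 times as high. The same ratio was 43.1 in replicate 1 and 67.3 in replicate 2.

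*mrpr-1*, the RNase MRP RNA gene, had a weaker entry than *rpr-1* in every ce11 list. Its signal was 436 in the thresholded list, 239 in replicate 1 and 197 in replicate 2, with a replicate mean of 218 ± 29.9 (SD, n = 2). The entry at *rpr-1* was 2.68 times as high in the thresholded list, 2.58 times in replicate 1 and 2.76 times in replicate 2, so this ratio between the genes differed little between the replicates. *mrpr-1* ranked 78 in the thresholded list, 83 in replicate 1 and 85 in replicate 2. Its summit lay 35 bp upstream in the thresholded list, 38 bp in replicate 1 and 35 bp in replicate 2, the smallest spread of places among the 4 genes. The pooled list held a further summit in the same interval, 164 bp downstream of the 5′ end, with a signal of 8.27. Against the strongest other entry within 3000 bp and beyond 200 bp, the entry at *mrpr-1* was 34.5 times as high in the pooled list, 26.2 times in replicate 1 and 20.5 times in replicate 2.

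*yrn-1*, the Y RNA gene, had an entry in both replicate lists and none in the pooled and thresholded ce11 lists. Its signal was 88.1 in replicate 1 and 64.3 in replicate 2, with a mean of 76.2 ± 16.9 (SD, n = 2) and ranks of 268 and 317. Only 0.968% of the entries of replicate 1 and 1.05% of those of replicate 2 were stronger. The summits lay 61 bp upstream of the 5′ end in replicate 1 and 9 bp upstream in replicate 2, a wider difference than at *rpr-1* or *mrpr-1*. The 5′ end of the antisense gene *F55G1.20* lay 196 bp from the summit of replicate 1 and 144 bp from that of replicate 2, farther than that of *yrn-1* in both. The intervals were narrow, 214 bp in replicate 1 and 141 bp in replicate 2, where the medians of the 2345 strongest entries were 364 and 344 bp and 11.4% and 4.09% of them were narrower.

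The absence of *yrn-1* from the pooled list was uncommon for an entry of this strength. Around the gene the pooled list was empty from 11422 bp before to 6454 bp after the 5′ end, a distance between summits of 17876 bp. Such a gap is long but not unique, as 1319 of 29965 gaps between neighbouring nuclear summits of that list (4.40%) were at least as long. Inside it replicate 1 had 4 entries and replicate 2 had 4. Of the 2345 strongest entries of replicate 1, 1234 had a summit of the strongest entries of replicate 2 within 200 bp, and 28 of these (2.27%) had no pooled summit within 500 bp. In replicate 1 the entry at *yrn-1* was the strongest of those 28, and 262 of the 1234 were stronger than it, all with a pooled summit within 500 bp. In replicate 2 the corresponding count was 30 of 1238 (2.42%), and 2 of the 314 shared entries stronger than *yrn-1* were among those 30. All 2345 thresholded ce11 peaks are also entries of the pooled ce11 list, and why *yrn-1* has no entry there was not tested.

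The lists on the older build ce10 gave *yrn-1* a thresholded peak. No ce10 annotation was used, and each gene was found on ce10 through the replicate entry on the same chromosome with a signal within 1% of that on ce11 and a start within 1000 bp, of which there was 1 for each gene and replicate. The thresholded ce10 list holds 1827 peaks, and within 200 bp of the ce10 entry of replicate 1 it had a peak of signal 115 and rank 183 for *yrn-1*. The pooled ce10 list had no entry for *yrn-1* within 200 bp. The same thresholded ce10 list had a peak of signal 1101 and rank 7 for *rpr-1*, one of signal 535 and rank 30 for *mrpr-1*, and none for *rncs-1*. So 3 of the 4 genes had a thresholded peak on ce10 and 2 on ce11. Of the 1827 thresholded ce10 peaks 0 were identical in interval and signal to an entry of the pooled ce10 list, unlike on ce11, and signals are therefore not compared between the builds.

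*rncs-1* had weak entries that moved from list to list. The signal of the nearest entry was 14.6 in the pooled list, 15.2 in replicate 1 and 20.5 in replicate 2, with a replicate mean of 17.8 ± 3.74 (SD, n = 2). Its ranks were 11331 in the pooled list, 5325 in replicate 1 and 2363 in replicate 2, the last of which is just outside the 2345 strongest entries. The summits lay 49 bp upstream in the pooled list, 161 bp upstream in replicate 1 and 43 bp downstream in replicate 2. An entry of like strength, 14.2, lay 934 bp downstream of the 5′ end in the pooled list, so the entry at the 5′ end was only 1.03 times as high there and 1.66 and 1.84 times as high as the strongest other entry in the replicates. The nearest thresholded ce11 summit was 16025 bp away.

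**Figure D2:**
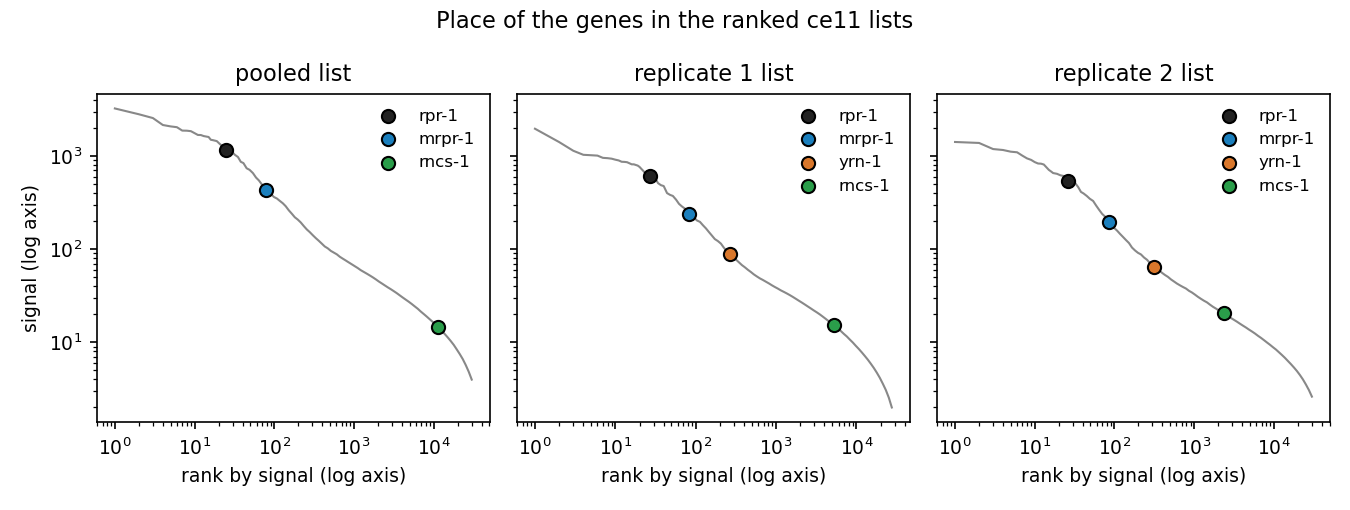
Signal against rank (log axes) in the pooled list and the 2 replicate lists on ce11, with the line for all entries and a point for each gene with a summit within 200 bp. *rpr-1* (ranks 25, 27 and 26) and *mrpr-1* (78, 83 and 85) keep nearly the same place in each, *yrn-1* appears only in the replicates (268 and 317) and *rncs-1* lies far down (11331, 5325 and 2363).

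The replicates were also compared through the ratio of their signals. The ratio of replicate 1 to replicate 2 was 1.13 at *rpr-1*, 1.21 at *mrpr-1*, 1.37 at *yrn-1* and 0.741 at *rncs-1*. Over the 2194 thresholded nuclear peaks found in both replicates the median ratio was 1.24, with quartiles of 0.818 and 1.86. The values of *rpr-1*, *mrpr-1* and *yrn-1* lay between the quartiles and that of *rncs-1* lay below the lower one. The entries at *rncs-1*, 161 bp upstream in replicate 1 and 43 bp downstream in replicate 2, may not mark the same site. Neither *rncs-1* nor *yrn-1* had a thresholded ce11 summit within 200 bp, so the quartiles come from selected peaks that include neither. The ratio at *rncs-1* therefore does not show an unusual difference between the replicates.

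**Figure D3:**
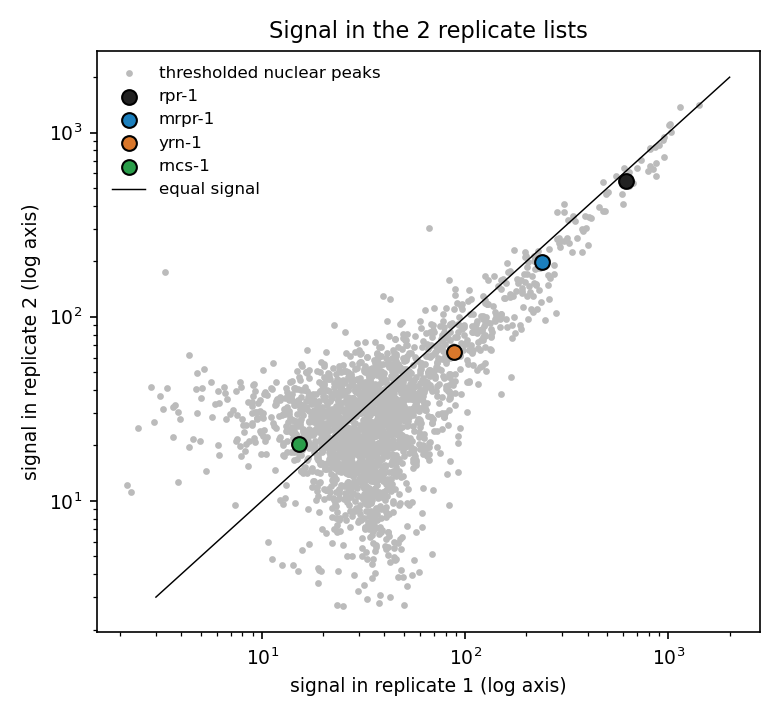
Signal in replicate 1 (horizontal) and in replicate 2 (vertical), on log axes, for the thresholded nuclear peaks found in both (grey) and for the nearest entries of the 4 genes, with the line of equal signal. *rpr-1*, *mrpr-1* and *yrn-1* lie a little below the line (ratios 1.13, 1.21 and 1.37), and *rncs-1* lies above it (0.741).

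The place of the summit was set beside that at other genes, with negative values upstream of the 5′ end. At the 56 of 99 snRNA genes with a thresholded summit within 200 bp, the median offset was -40.5 bp (quartiles -54.3 and -19.0). At the 18 of 31 spliced leader RNA genes with one it was -44.0 (quartiles -46.8 and -34.8). At the 294 of 634 tRNA genes with one it was 19.5 (quartiles -17.8 and 58.0). Of the 634, 612 are nuclear, and the others were not left out of these values. Nuclear tRNA genes use promoters inside the gene. The offsets of -21 at *rpr-1* and -35 at *mrpr-1* lay between the snRNA quartiles, and that of *mrpr-1* also lay between the spliced leader quartiles. Both offsets lay between the quartiles of the 95 snoRNA genes with a summit as well (-59 and -12), so this place is not particular to snRNA genes. In the class annotated as noncoding RNA, to which both genes belong, the lower quartile was -14.8, and both offsets lay upstream of it. Measured from the centre of the element, the summit lay 38 bases towards the gene at *rpr-1* and 26 bases at *mrpr-1* in the thresholded list. The replicates put it 38 and 21 bases from the element at *rpr-1*, 23 and 26 bases at *mrpr-1*, and -2 and 50 bases at *yrn-1*.

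**Figure D4:**
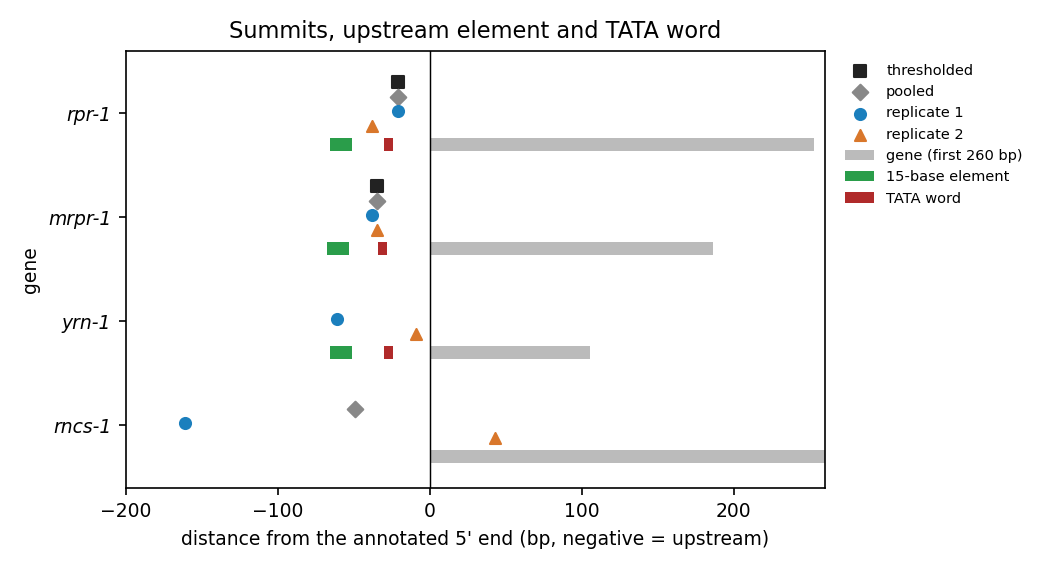
Nearest summit to each gene's 5′ end by list, where within 200 bp, on an axis of distance from the 5′ end in bp. Bars below show the gene (first 260 bp), the 15-base element and the TATA word. At *rpr-1* and *mrpr-1* the nearest summits lie 21 to 38 bp upstream in all lists, and at *yrn-1* 61 and 9 bp upstream. At *rncs-1*, which has neither mark, they lie from 161 bp upstream to 43 bp downstream. A further weak summit of the pooled list, 164 bp downstream at *mrpr-1*, is not drawn.

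The signal of *rpr-1* was set beside that of 5 classes of noncoding RNA genes. Of the 56 snRNA genes with a thresholded summit 1 had a higher signal than *rpr-1*, as did 4 of the 18 spliced leader RNA genes, 15 of the 95 small nucleolar RNA (snoRNA) genes and 1 of the 294 tRNA genes. In the class annotated as noncoding RNA, to which both belong, 10 of the 438 genes with a summit exceeded *rpr-1* and 28 exceeded *mrpr-1*. *mrpr-1* was also exceeded by 13 snRNA, 8 spliced leader, 27 snoRNA and 12 tRNA genes. The median signals were 218 for snRNA, 399 for spliced leader, 134 for snoRNA, 74.0 for tRNA and 73.8 for noncoding RNA genes, so *rpr-1* and *mrpr-1* both lay above the median of each. Overlapping or neighbouring genes can share a peak in these counts. snRNA genes also have near-identical copies, which makes their values uncertain. How unique the sequence is was computed only for *rpr-1*, *mrpr-1*, *yrn-1* and *rncs-1*, not for the genes of these classes. The tRNA values were drawn from all 634 annotated tRNA genes, of which 612 are nuclear.

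By the distance between log2 signals in the 2 replicates, the noncoding RNA gene most like *rpr-1* was the spliced leader RNA gene *sls-2.2*, with signals of 622 and 526 in the replicates and a distance of 0.05. The snRNA gene *C52E4.8* and its neighbour *C52E4.14*, which share 1 peak of 610 and 525, followed at 0.055. Most like *mrpr-1* were the spliced leader RNA genes *sls-2.14* (242 and 194, distance 0.032) and *sls-2.17* (251 and 204, distance 0.086) and the gene *smy-3* (219 and 202, distance 0.14). The likeness is over 2 samples and describes the size of the signal only.

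Genes of proteins that work with these RNAs or make them were mostly without a thresholded peak, as were protein-coding genes in general. The list of 24 protein-coding genes held subunits of RNase P and RNase MRP (*popl-1*, *popl-4*, *popl-5* and *popl-7*), the Ro protein gene *rop-1*, the Dicer gene *dcr-1*, the gene of its partner *rde-4*, and genes of SNAPc, the TATA-binding protein and the RNA polymerase III machinery. Of these 2 (8.33%) had a thresholded ce11 summit within 200 bp, against 2.59% of all protein-coding genes. *snpc-4*, the gene of the mapped factor, had a summit at an offset of -190 bp with signal 124, and *snpc-3.4*, another SNAPc subunit gene, had one at -21 bp with signal 69.2. The strain also carries tagged *snpc-4* in the transgene *wgIs179*, and whether reads from the transgene add to the signal at *snpc-4* was not tested. The 4 *popl* genes had none. In the pooled list 12 of the 24 had an entry within 200 bp, against 17.1% of protein-coding genes, among them *popl-7* with signal 35.0 and *rde-4* with signal 31.5. *rop-1*, named after its value was seen, had a thresholded summit with signal 43.5 just outside the limit, at -211 bp, and its replicate entries lay at -159 and -167 bp with signals of 13.0 and 10.4.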

How the data were processed

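Peaks were mapped by ChIP-seq against SNPC-4 in 2 biological replicates of young adult worms. Per the labels and the deposited text files, the lists are narrowPeak files on ce10 and ce11: an IDR-thresholded list, the pooled list and the 2 replicate lists given to IDR. The peak signal and the summit position are values that the authors deposited from their peak caller, and the deposited -log10 q values carried no ranking in the thresholded lists. Which peak caller, aligner and IDR threshold were used is not given in the sources used here.

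Genes came from Ensembl release 115 of WBcel235 (ce11), with symbols and genome sequence from RefSeq on the same assembly. A summit was the start (column 2) plus the summit column, counted from 1, and was near a gene within 200 bp of its 5′ end. Members and lists were chosen with earlier results of these data known. Named genes were the 4 members, their hosts, the 3 genes most like *rpr-1* and *mrpr-1* in replicate signals, and partner genes with a peak. Other partner genes, *pcrg-1* and the genes with the upstream letters were named outside this rule, after their values were seen. Other distances (100, 500 and 1000 bp), interval overlap, single replicates and ce10 were tried. The search for nearest summits was tested on simulated data. Python 3.11.15, numpy 2.4.6, pandas 2.3.3 and matplotlib 3.10.9 were used.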

Additional observations from a re-analysis of the deposited data

How the results depend on the processing

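With summits within 100, 500 or 1000 bp, or with interval overlap, 2 of the 4 genes had a thresholded ce11 peak and 3 had a pooled entry, as at 200 bp, and the stronger part of the thresholded list also gave 2. From the strongest entries of a single replicate the count was 3 with either replicate left out, and from the thresholded ce10 list, an alternative chosen after seeing the data, it was 3. The pooled ce10 list gave 3. Leaving out a replicate put the signal of *rpr-1* between 544 and 617 and that of *mrpr-1* between 197 and 239, where the thresholded list, made from both replicates together and on a scale that can differ, gave 1167 and 436. The offset of *rpr-1* was then between -38 and -21, and that of *mrpr-1* between -38 and -35. Taken from the midpoint of the peak interval, the offset was 3 bp downstream at *rpr-1*, on the other side of the 5′ end, and -13 at *mrpr-1*; both intervals extend farther on the gene's side of the summit than on the other. No paired analysis was possible because there is a single group. Depth is unknown, so an absent entry does not show absent binding.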

Other observations

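Other genes with the AAC and TGTC element followed by TATATA were mostly snRNA genes, some with strong and some with weak entries. Besides *rpr-1*, *mrpr-1* and *yrn-1* there were 15, of which 11 are snRNA genes and the others are the piRNA gene *21ur-4289*, the snoRNA gene *W05B2.9* and the protein-coding genes *C18D11.9* and *cest-32*. Of the 15, 6 had a thresholded ce11 summit within 200 bp, all of them snRNA genes. *W05B2.8* had signal 1493 (837 and 638 in the replicates), *F54D8.7* 710 (392 and 305) and *R07E5.16* 289 (150 and 141), with summits 54, 62 and 64 bp upstream. The other 3 snRNA genes, *Y17G9A.85* and *T08B6.62* among them, had signals of 115 to 332. The snRNA genes *F54C8.10*, *F54C8.9*, *K09B11.11*, *K09B11.14* and *K09B11.16* had the same letters upstream and no thresholded summit within 200 bp, and their replicate entries, where present, had signals of 6.02 to 9.42. snRNA genes have near-identical copies, which makes these values uncertain. Over the whole genome, both strands, the ordered pair occurred at 59 places, and 9 of them (15.3%) had a thresholded summit within 100 bp of the element, where 0.465% of the nuclear genome lies that close. These places include the genes just named, from which the letters were partly read. Of the genes with the pair, 8 had a thresholded summit within 200 bp, namely *rpr-1*, *mrpr-1* and 6 snRNA genes. The letters were chosen from genes of these kinds, so the 15.3% cannot be read as an independent enrichment.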
